A study of Caenorhabditis elegans with 2 samples.

Results

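The genes described here encode the general transcription machinery of Caenorhabditis elegans. They are the protein-coding genes of the Ensembl annotation of WBcel235 whose symbol starts with taf-, rpb-, mdt-, gtf- or rpc- and a digit, with tbp-1, ttb-1 and ama-1 added, and they number 65 of 19973 protein-coding genes on the nuclear chromosomes. The rule uses symbols and no measured value. By symbol they fall into 12 genes of RNA polymerase II (rpb- and ama-1), 18 of TFIID (taf- and tbp-1), 11 of the other general factors (gtf- and ttb-1), 20 of Mediator and 4 of RNA polymerase III (rpc-). The data are chromatin immunoprecipitation followed by sequencing (ChIP-seq) of 2 biological replicates, in 1 group, of whole young adults of mixed sex, 69 h old and synchronised by bleaching and hatching into starvation. The strain, OP720, has the genotype unc-119(tm4063), and its transgene wgIs720 carries unc-119(+) and lsl-1 fused at its C-terminal end to TY1, EGFP and 3xFLAG; DNA bound by the fusion protein was recovered with an antibody against GFP. The deposited lists give regions with a signal value and a summit, the base of strongest signal, but no read counts, so depth is unknown. The list used for calls holds 3897 peaks that passed thresholding by irreproducible discovery rate (IDR), a measure of how well peaks keep their rank between replicates. Ranks count down from 1, the strongest signal. A gene is called bound here if an IDR summit lay from 1000 bp upstream to 200 bp downstream of its annotated 5' end, and negative positions are upstream of that end. Whole worms were used, no untagged strain was analysed here, and a peak does not say in which cells the protein was bound or whether the gene was expressed.

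RNA polymerase II makes messenger RNA, and RNA polymerase III makes tRNA and other short RNAs; some small subunits, among them the products of rpb-5, rpb-6, rpb-8, rpb-10 and rpb-12, are shared by all nuclear RNA polymerases in yeast and humans. At a promoter TFIID, built from the TATA-binding protein and its associated factors (TAFs), recruits TFIIB, TFIIE, TFIIF, TFIIH and the polymerase, while Mediator links bound activators to the polymerase. In the early worm embryo the protein OMA-1 holds TAF-4 in the cytoplasm by competing with TAF-12, its partner in TFIID.

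Sequence around the summits is shown for taf-12, which had the strongest peak of the set, for gtf-2H3, the only other general factor with a peak, for rpb-11, taf-8 and rpb-6, whose own 5' end was the closest to the summit, for ama-1, the largest polymerase subunit, and for the Mediator gene mdt-15. Each run covers the summit and 50 bases on either side of it, for the summit of the gene's best peak, written 5' to 3' along the strand of the gene, from the RefSeq assembly of WBcel235. Capitals mark ACTGTA and ACAGTA, and also GCGCA, on either strand; where matches overlap, the capitals run together (TACTGTA holds ACTGTA and the reverse complement of ACAGTA).
taf-12 (chrIII:11869558-11869658, - strand): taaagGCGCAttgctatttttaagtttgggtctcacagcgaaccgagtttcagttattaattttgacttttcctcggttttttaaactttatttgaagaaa
gtf-2H3 (chrIII:10120559-10120659, - strand): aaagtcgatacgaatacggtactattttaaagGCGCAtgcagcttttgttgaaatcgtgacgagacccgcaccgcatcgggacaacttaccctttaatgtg
rpb-11 (chrII:14059922-14060022, + strand): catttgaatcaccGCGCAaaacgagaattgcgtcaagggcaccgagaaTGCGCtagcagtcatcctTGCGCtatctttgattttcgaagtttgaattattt
taf-8 (chrII:9668963-9669063, + strand): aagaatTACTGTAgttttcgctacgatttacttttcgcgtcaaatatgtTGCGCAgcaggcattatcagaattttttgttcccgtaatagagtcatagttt
rpb-6 (chrII:10578952-10579052, + strand): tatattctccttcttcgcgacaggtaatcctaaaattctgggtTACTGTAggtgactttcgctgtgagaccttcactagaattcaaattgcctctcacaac
ama-1 (chrIV:4247521-4247621, + strand): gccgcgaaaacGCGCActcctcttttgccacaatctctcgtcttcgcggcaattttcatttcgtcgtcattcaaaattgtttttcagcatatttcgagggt
mdt-15 (chrIII:5834303-5834403, - strand): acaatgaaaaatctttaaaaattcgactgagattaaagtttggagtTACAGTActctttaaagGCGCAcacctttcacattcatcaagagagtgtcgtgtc
In taf-8, rpb-6 and mdt-15 a match to ACTGTA or ACAGTA lay in the run, starting -44, -7 and -4 bp from the summit. The other 4 runs held GCGCA alone, which starts -45 bp from the summit at taf-12 and -18 bp at gtf-2H3.

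The words ACTGTA and ACAGTA, together with CTACAG, were taken from earlier work on these same peaks, so their counts are a description. On both strands within 50 bp of the summit, ACTGTA or ACAGTA was present at 3 of the 20 best peaks of bound members, at 20.0% of the 2048 best peaks of all bound protein-coding genes, at 26.3% of all 3897 IDR peaks and at 11.8% of the 26103 pooled regions that ranked below them. In flanks 200 to 250 bp away the member count was also 3, and the share over all IDR peaks was 9.67%. CTACAG was found at 2 of the 20 member peaks and at 11.8% of the best peaks of all bound genes. GGCGCA and ACGCGC, further words from the earlier work that were added after the data were seen, were each present at 6 of the 20 member peaks (30.0%), against 19.8% and 17.1% over all bound genes. GCGCA, chosen after the member sequences had been read, was present at 14 of 20 (70.0%), at 40.8% over all bound genes and at 9.22% of the lower-ranked regions. It lies within GGCGCA, and its member count carries no weight as evidence because the word was picked on these sequences. No match in a window says only that these letters are not in it.

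Of the 65 members, 20 were bound (30.8%, 95% exact Clopper-Pearson interval 19.9 to 43.4), where 14.2% of all protein-coding genes were. On autosomes the count was 20 of 61 (32.8%) beside 16.3%. Intervals in this text cover the counting of genes alone. Any region of the pooled list, background regions included, lay in the window of 52 of 65 members (80.0%) and of 36.7% of all protein-coding genes. Among genes that held such a region, 20 of 52 members were bound (38.5%) and 38.7% of all genes, so within that subset the share of members was at the background. By complex, as the plot of shares shows, the calls fell on 9 of 12 RNA polymerase II genes (75.0%, 42.8 to 94.5), 5 of 18 TFIID genes (27.8%, 9.69 to 53.5), 5 of 20 Mediator genes (25%, 8.66 to 49.1), 1 of 11 other general factors (9.09%, 0.230 to 41.3) and 0 of 4 RNA polymerase III genes (upper limit 60.2%). Without the RNA polymerase II genes, the group with the highest share, 11 of 53 were bound (20.8%, 10.8 to 34.1). Leaving out the highest group lowers the share of the rest by construction, so this value is a description. The bound RNA polymerase II genes included rpb-5, rpb-6, rpb-8, rpb-10 and rpb-12, whose products are shared between polymerases in yeast and humans. Counts grouped by symbol therefore do not set RNA polymerase II against RNA polymerase III. The differences between complexes were not tested.

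**Figure D1:**
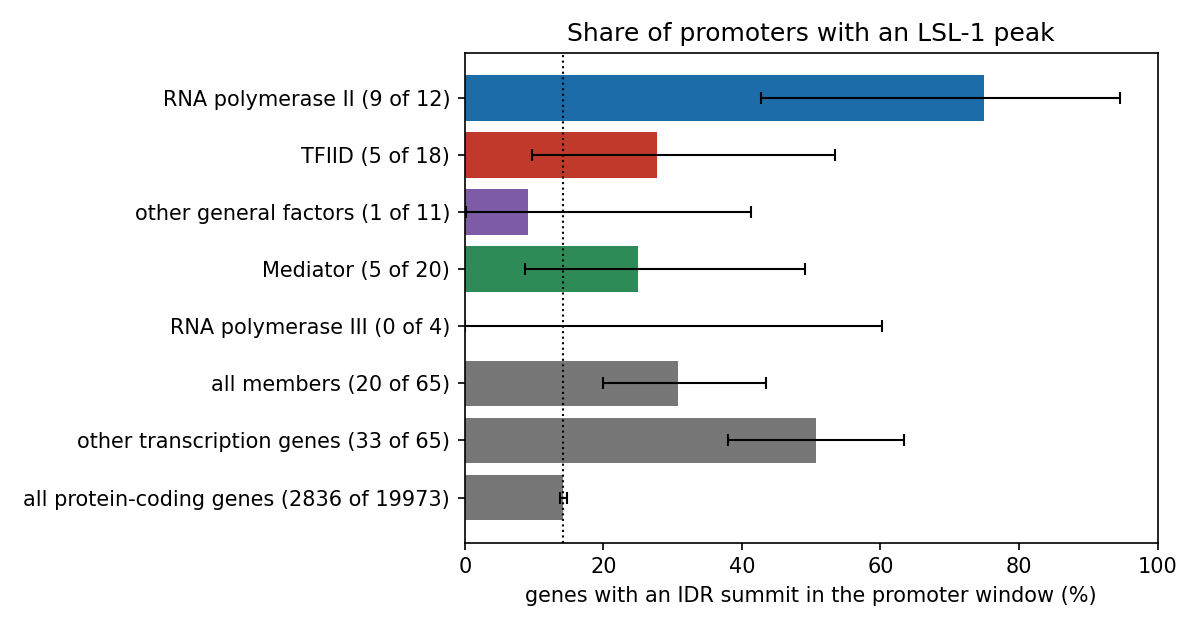
Share of genes with an IDR summit in the promoter window (horizontal axis, %), for each complex, all members, the other transcription genes and all protein-coding genes; bars are shares, whiskers are 95% Clopper-Pearson intervals and the dotted line is the share of all protein-coding genes, 14.2%. RNA polymerase II genes stand highest at 75.0%, and the whiskers of the small groups are wide. No group was tested against the dotted line.

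RNA polymerase II genes were bound at both large and small subunits. Of the 9 bound genes, 7 shared their best peak with another gene (77.8%; all bound genes 54.5%). The count of 9 was the same with the narrower and wider windows and 7 with the upper 50% of peaks. It was 6 with each summit given only to the gene of the closest 5' end, and 3 with peaks in the window of 1 gene. The best-ranked was rpb-3, whose product pairs with that of rpb-11 in the enzyme: rank 440 of 3897, with ranks 436 and 431 in the lists of replicates 1 and 2, and its summit at -154 bp in the interval it shares with the divergent proteasome gene pas-4, 277 bp away between 5' ends. Its partner rpb-11 had rank 861 (859 and 904 in the replicates) at -113 bp. Both peaks were in the upper 50% of the list, as were the best peaks of 63.4% of all bound genes. Such ranks are therefore not particular to this pair. The rpb-3 summit was also closer to the 5' end of pas-4, at -123 bp. With each summit given only to the gene of the closest 5' end, rpb-3 was not called and rpb-11 was. Among subunits shared between polymerases, rpb-10 ranked 796 (834 and 691) at -240 bp and rpb-12 ranked 1292 (1299 and 1223) at -289 bp. The gene rpb-6 held 2 summits, rank 1372 (1498 and 1140) at -378 bp and rank 1741 (2062 and 1497) at -654 bp. Lower in the list were rpb-5, rank 2916 (3481 and 2392) at -104 bp, and rpb-8, rank 3392 (3242 and 4699) at -124 bp. All 5 shared subunits were bound, and rpb-8 was the only one of them without support from the top 3897 regions of replicate 2. The largest subunit gene, ama-1, which encodes the target of the toxin amanitin, held 2 summits: rank 1825 at -499 bp (ranks 1914 and 1833) and rank 3826 at -299 bp (ranks 3451 and 6204). A further IDR summit, rank 3751, lay at +10002 bp in an untranslated exon of this gene of 10100 bp, without support from both replicates' top regions. The stalk gene rpb-7 had rank 1924 (1786 and 2872) at +28 bp, inside its own coding sequence, the only best summit of a member downstream of the 5' end; Y54E10BR.2 starts 3 bp away on the other strand.

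The RNA polymerase II genes not called were rpb-2, rpb-4 and rpb-9. The second-largest subunit gene, rpb-2, had only weak pooled regions, the best of rank 17329 of 30000 at -222 bp, and it lies 114 bp downstream of fsn-1 on the same strand. The stalk partner of rpb-7, rpb-4, came close to the end of the IDR list with a pooled region of rank 4598 at -354 bp (ranks 4864 and 4258 in the replicates). For rpb-9, which encodes a small subunit, the best pooled region had rank 9846 at -92 bp, with no region of replicate 2 within 100 bp.

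In TFIID the histone-fold genes taf-12 and taf-4 led. The peak at taf-12, chromosome III from 11869183 to 11870074, was 892 bp wide and lay in intergenic sequence with its summit at -327 bp and no other protein-coding window over it. It had rank 7 of 3897 in the IDR list, rank 9 of 30000 in replicate 1 and rank 5 of 26018 in replicate 2. Its deposited signal was 3709, where the median IDR peak had 243 and the strongest 5903; these values are the authors' and are compared within 1 list only. The gene of its partner, taf-4, had 2 summits, both also in the window of the divergent gene pqn-59: rank 473 at -283 bp (ranks 459 and 559) and rank 3294 at -76 bp, which fell below the top 3897 regions in both replicates (ranks 7766 and 4487). Next was taf-8, rank 1095 (1104 and 1117) at -305 bp with a window of its own. For taf-11.3 the best summit, rank 2042 at -869 bp (ranks 2558 and 1012, with the replicate 2 summit 97 bp away), lay in a peak 1141 bp wide over an untranslated exon of sip-1. A second one, rank 2887 at -113 bp (ranks 2770 and 3593), was closer to the 5' end and shared with urm-1. The count of TFIID genes was 3 with the upper 50% of peaks. The weakest was taf-6.2, rank 3553 at -169 bp, whose rank in replicate 1, 3985, was just outside the top 3897.

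Not all TFIID paralogues were called. Of the pair taf-6.1 and taf-6.2 the latter was called, while taf-6.1 had a pooled region of rank 5354 at -98 bp and an IDR summit of rank 3081 inside an intron, at +2534 bp. Of taf-11.1, taf-11.2 and taf-11.3 the last was called; taf-11.2 had a pooled region of rank 4323 at -92 bp, the highest of any uncalled member, and taf-11.1, on X, had none. Neither taf-7.1, on X, with no pooled region, nor taf-7.2, with one of rank 5087 at -124 bp, was called. The TFIID gene taf-3, also on X, had no region either. The gene of the TATA-binding protein, tbp-1, had only a pooled region of rank 21983 at +19 bp. No IDR summit lay in the windows of taf-1, which encodes the largest TFIID subunit, taf-2, taf-5, taf-9, taf-10 or taf-13. Their best pooled regions ranked 4543 at taf-10 (4412 and 6375 in the replicates), 7229 at taf-9, 11414 at taf-13, 24110 at taf-1 and 25565 at taf-5, and taf-2 had none.

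Only gtf-2H3, which encodes a core subunit of TFIIH, was called among the other general factors. Its peak had rank 583 (590 and 605 in the replicates) with its summit at -461 bp, chromosome III from 10120451 to 10120793, in intergenic sequence shared with the divergent gene ham-3, whose 5' end was closer at -172 bp. The TFIIB gene ttb-1 was not called: its best pooled region had rank 4952 at -588 bp (ranks 4328 and 9752). Of the TFIIE genes, gtf-2E2 had a pooled region of rank 4999 at +55 bp (4912 and 7013) and gtf-2E1 none. The TFIIF gene gtf-2F1 had one of rank 16862 and gtf-2F2 none. The small TFIIA subunit gene gtf-2A2 had one of rank 9743, and among further TFIIH genes gtf-2H4 had rank 6356 at -995 bp, gtf-2H2C 6403, gtf-2H5 15261 and gtf-2H1 none. The genes grouped by symbol under RNA polymerase III (rpc-) had no IDR summit in the window. Best pooled ranks were 7249 at rpc-25, 7847 at rpc-2 and 23646 at rpc-11, and rpc-1, the largest subunit gene, had no region. Subunit genes without an rpc- symbol, those for shared subunits included, are not in this count, so it does not describe the whole enzyme.

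Mediator genes were bound at 5 of 20 loci, with 3 of the summits more than 500 bp upstream of the 5' end. Best was mdt-19, rank 843 (831 and 927) at -778 bp, but this summit lay closer to the divergent adaptin gene apb-1 at -241 bp. The gene itself held 2 stronger summits in an intron, rank 136 at +594 bp and rank 605 at +810 bp, both supported by both replicates and outside the promoter window. At mdt-22 the summit of rank 1443 (1364 and 1946) was at -71 bp in an intron of clpp-1. For mdt-6 it was rank 1762 (1955 and 1477) at -919 bp, next to the 5' ends of Y57E12AL.1 and Y57E12AL.6. For mdt-15, which encodes a coactivator of lipid metabolism and stress genes in the worm, it was rank 1902 (1945 and 1866) at -602 bp, closer to R12B2.6 at -200 bp and also in the window of R12B2.13. At mdt-9 a peak of rank 2314 (2189 and 3643) at -123 bp was shared with lsm-3, Y62E10A.20 and Y62E10A.23. With the summit given only to the gene of the closest 5' end, 1 Mediator gene, mdt-22, was called. The Mediator count was 2 with a window of 500 bp upstream to 100 bp downstream, 9 with 2000 bp upstream to 500 bp downstream, and 3 of 10 with operon-like genes left out.

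The other 15 Mediator genes were not called in the window. Pooled ranks were 6364 at mdt-17, 6571 at mdt-28, 6899 at mdt-30, 7593 at mdt-27, 7652 at mdt-4, 8735 at mdt-20, 9983 at mdt-8, 13541 at mdt-31, 14596 at mdt-11 and 17567 at mdt-26, while mdt-1.2 (on X), mdt-10, mdt-18, mdt-21 and mdt-29 had no region. Some had IDR summits further inside the gene. At mdt-26 these were rank 1419 at +252 bp and rank 2156 at +520 bp, in untranslated exon sequence and in the window of ift-43. At mdt-18 they were rank 1601 at +1283 bp and rank 3158 at +1082 bp, in the window of uri-1, the latter without support in both replicates' top regions, and at mdt-4 rank 2045 at +1420 bp in an intron.

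**Figure D2:**
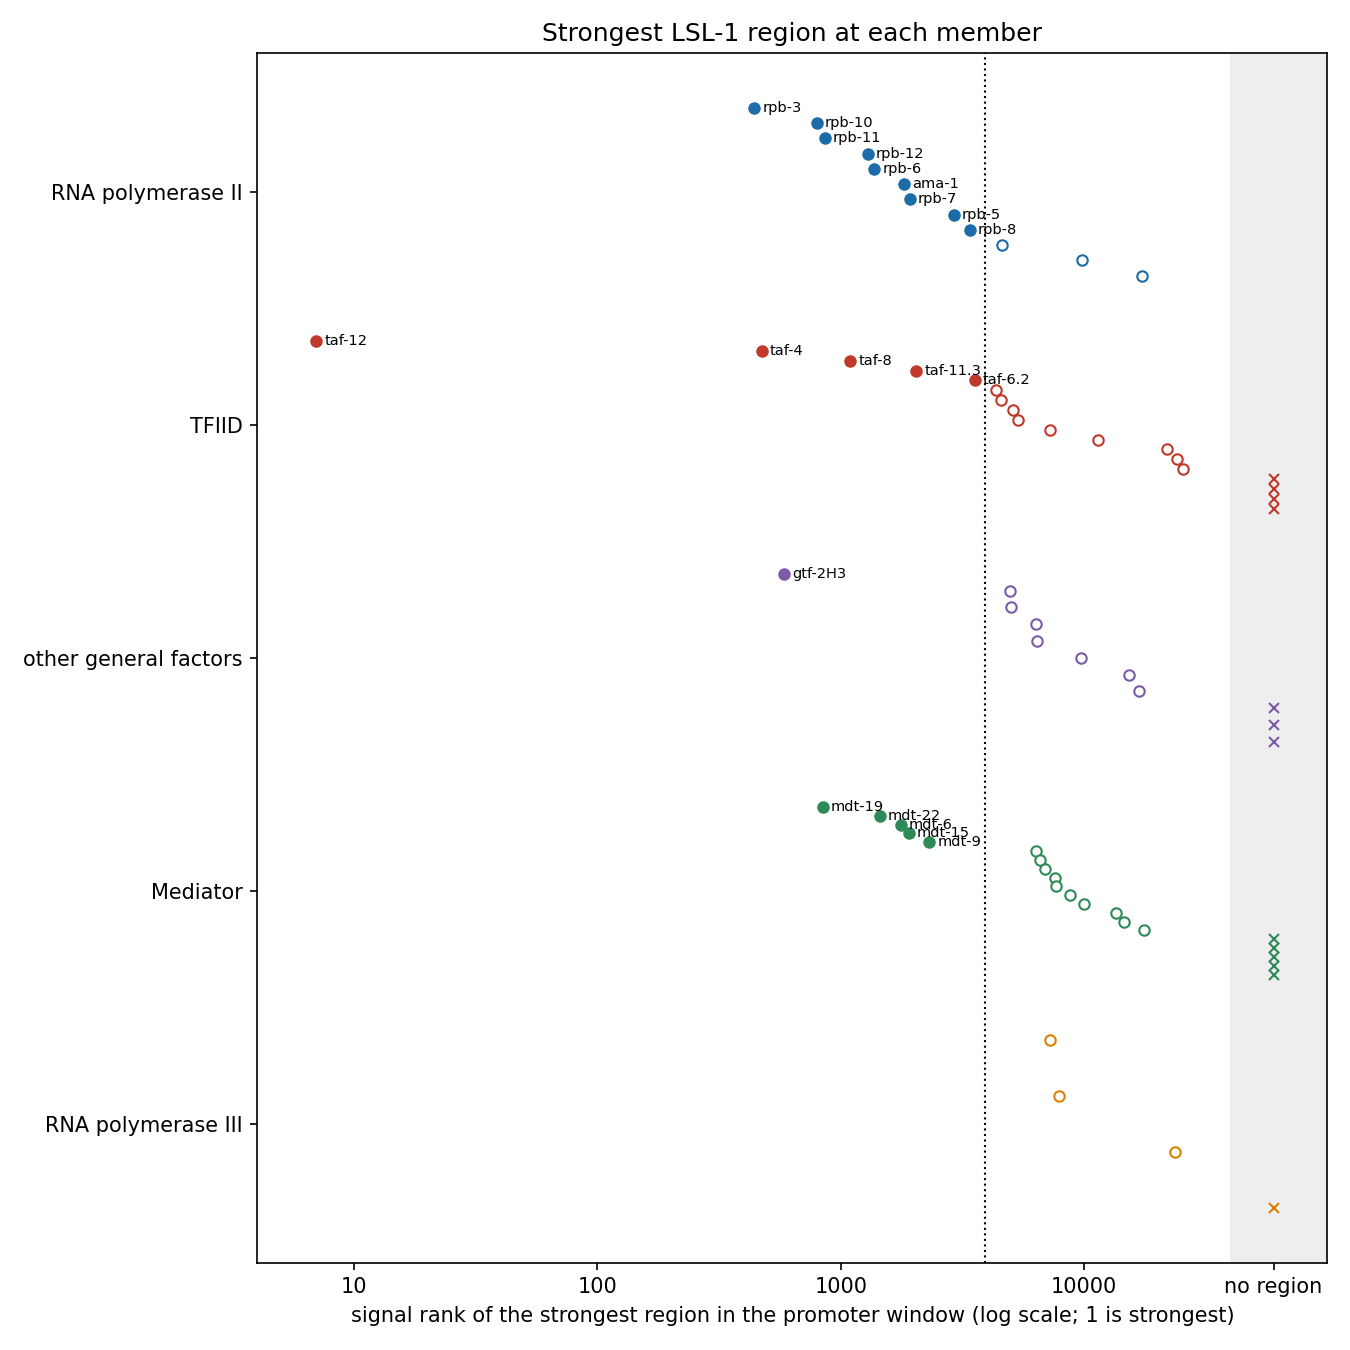
Signal rank of the strongest region in the promoter window of each of the 65 members (horizontal log axis, 1 is strongest), by complex; filled points are IDR peaks with gene names, open points are lower-ranked pooled regions, crosses in the grey band are genes with no region, and the dotted line is rank 3897, the end of the IDR list. The point for taf-12 at rank 7 stands far to the left of the next member, rpb-3 at rank 440, and 13 members have no region.

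In all, 45 members were not called, and 32 of them had a pooled region below the IDR list, with ranks from 4323 to 25565 and a median of 7750. Over all 19973 protein-coding genes, 2836 were bound, 4501 had only such a lower-ranked region and 12636 had none. For the 65 members these counts were 20, 32 and 13. The members nearest to the end of the list on the called side were taf-6.2 (3553) and rpb-8 (3392), and on the other side taf-11.2 (4323), taf-10 (4543) and rpb-4 (4598). With the top 3897 regions of replicate 2 in place of the IDR list, taf-11.2 was called and rpb-8 was not; with those of replicate 1, taf-6.2 was not called.

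Many of these genes lie downstream in closely spaced runs on 1 strand, as in operons, which are common in worms and whose downstream products are trans-spliced, so that the annotated 5' end need not be where transcription starts. A gene was called operon-like if its 5' end lay within 500 bp downstream of the 3' end of a gene on the same strand. This held for 26 of 65 members and for 18.1% of all protein-coding genes. Operon-like members were bound in 4 of 26 cases (15.4%; all genes 13.3%) and the others in 16 of 39 (41.0%; all genes 14.4%). The 4 were rpb-5, rpb-8, mdt-6 and mdt-15. At mdt-6 and mdt-15 the called peak was also the best peak of the first gene of the run. These first genes were Y57E12AL.6 (rank 1762 at -73 bp) and R12B2.6 (rank 1902 at -200 bp). Over all protein-coding genes, 3615 were operon-like and 482 of these were bound. Counting a bound first gene of the run as well raised the number of bound protein-coding genes from 2836 to 3676. Of the 22 operon-like members not called, 11 belonged to a run whose first gene was bound. One was tbp-1, 128 bp downstream of T20B12.3, whose own window held the peak of rank 428 at -179 bp. The others were taf-9 (first gene mlc-5, rank 1492), taf-2 (Y37E11B.7, rank 3133), gtf-2E2 (F54D5.9, rank 534), gtf-2F2 (Y39B6A.37, rank 1663), gtf-2H5 (Y55B1AR.2, rank 883), mdt-8 (Y62F5A.12, rank 881), mdt-11 (wip-1, rank 275), mdt-17 (prmt-1, rank 3576), rpc-2 (hach-1, rank 1653) and rpc-25 (zhit-3, rank 2588). Counting the first gene of the run as well, a setting chosen after seeing the data, 31 of 65 members were bound (47.7%), beside 18.4% of all protein-coding genes. Runs were read from gene spacing alone and are not annotated operons.

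Most bound members shared their peak. The best peak lay in the window of at least 1 other protein-coding gene for 15 of 20 bound members (75.0%), where the share over all bound genes was 54.5%. In 9 cases the 5' end of another gene was the closest: gtf-2H3, mdt-6, mdt-9, mdt-15, mdt-19, rpb-3, rpb-7, rpb-10 and taf-6.2. Peaks in a window of their own were those of taf-12, taf-8, mdt-22, ama-1 and rpb-5; the last lies 486 bp downstream of the synaptonemal complex gene syp-4, which had a separate peak of rank 319. Further neighbours were rars-1 (arginyl-tRNA synthetase) at rpb-8, aly-2 and daf-10 at rpb-12, dohh-1 at rpb-6, W01G7.4 at rpb-11, Y37E3.1 and moag-4 at rpb-10, sly-1 at the more distant summit of taf-11.3 and Y37E11AL.3 at taf-6.2. With peaks in the window of 1 gene alone, 6 of 65 members were called (9.23%), among them 3 RNA polymerase II and 2 TFIID genes, beside 6.65% of all protein-coding genes. Position alone does not say which of the genes in a shared interval a peak belongs to.

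The summits of bound members lay mostly upstream, as did those of all bound genes. The call window, 1000 bp upstream to 200 bp downstream of the 5' end, sets much of this for both. The median position was -286 bp (from -919 to +28), beside -250 bp over all bound protein-coding genes. In all, 19 of 20 were upstream (all bound genes 95.1%) and 15 of 20 within 500 bp upstream (75.0%; all bound genes 74.05%). Of the best summits, 16 were in intergenic sequence, 2 in untranslated exons, 1 in an intron and 1 in coding sequence of a protein-coding gene. This was not counted over all bound genes, so it cannot be called particular to the members. More than 1 summit lay in the window of ama-1, rpb-6, taf-4 and taf-11.3 (20.0% of bound members; all bound genes 10.3%). The median rank of the best peak was 1408, beside 1444 over all bound genes, 7 of 20 were in the upper 25% of the list (35.0%; all bound genes 35.5%) and 15 of 20 in the upper 50% (75.0%; all bound genes 63.4%).

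**Figure D3:**
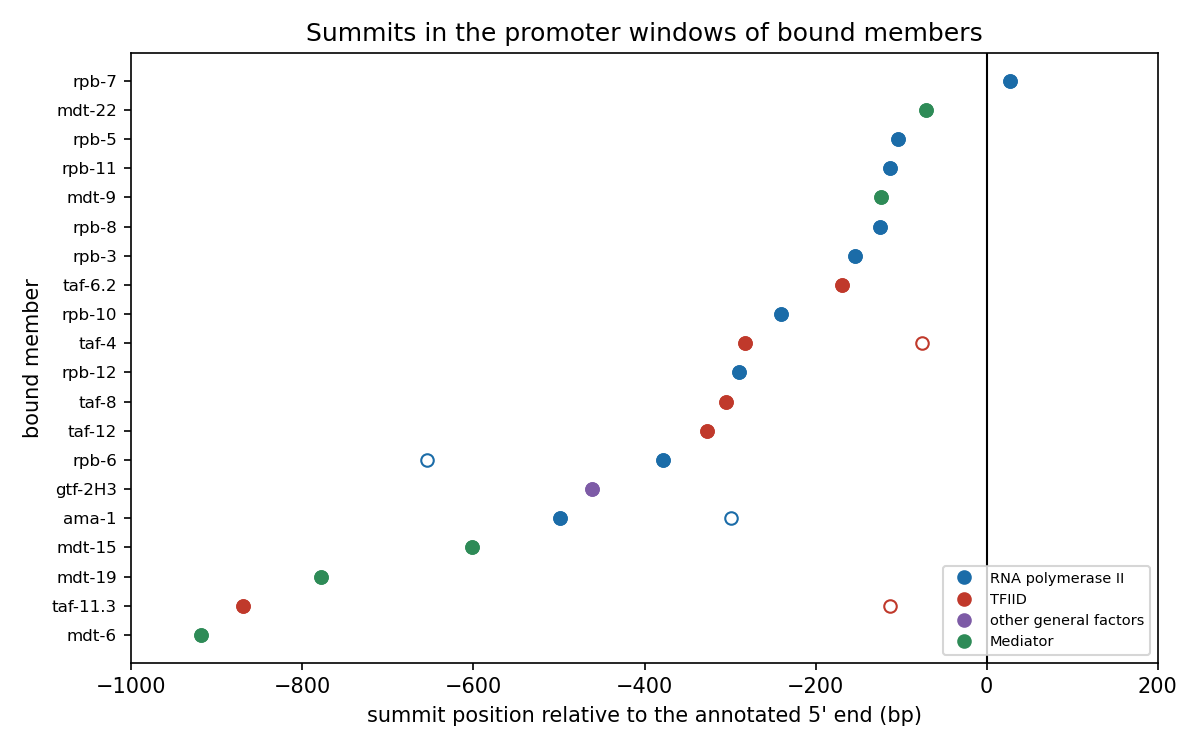
Position of IDR summits relative to the annotated 5' end (horizontal axis, bp; negative is upstream) for the 20 bound members, coloured by complex; filled points are the best-ranked summit of a gene and open points are further ones. RNA polymerase II summits sit between -499 and +28 bp for the best peak, while those of mdt-6, taf-11.3, mdt-19 and mdt-15 lie between -919 and -602 bp.

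Both replicates supported nearly every bound member. For 18 of 20 (90.0%) a summit of each replicate's 3897 strongest regions lay no more than 100 bp from the best summit, against 86.1% over all bound genes, and in the full replicate lists all 20 had one. The exceptions were rpb-8 (rank 4699 in replicate 2) and taf-6.2 (rank 3985 in replicate 1). Across the 20 best peaks the replicate ranks had a Spearman rho of 0.866, and 0.941 across the 1986 best peaks of all bound genes found in both lists. These peaks come from the same libraries and were selected partly on agreement between replicates, so the values are a description.

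**Figure D4:**
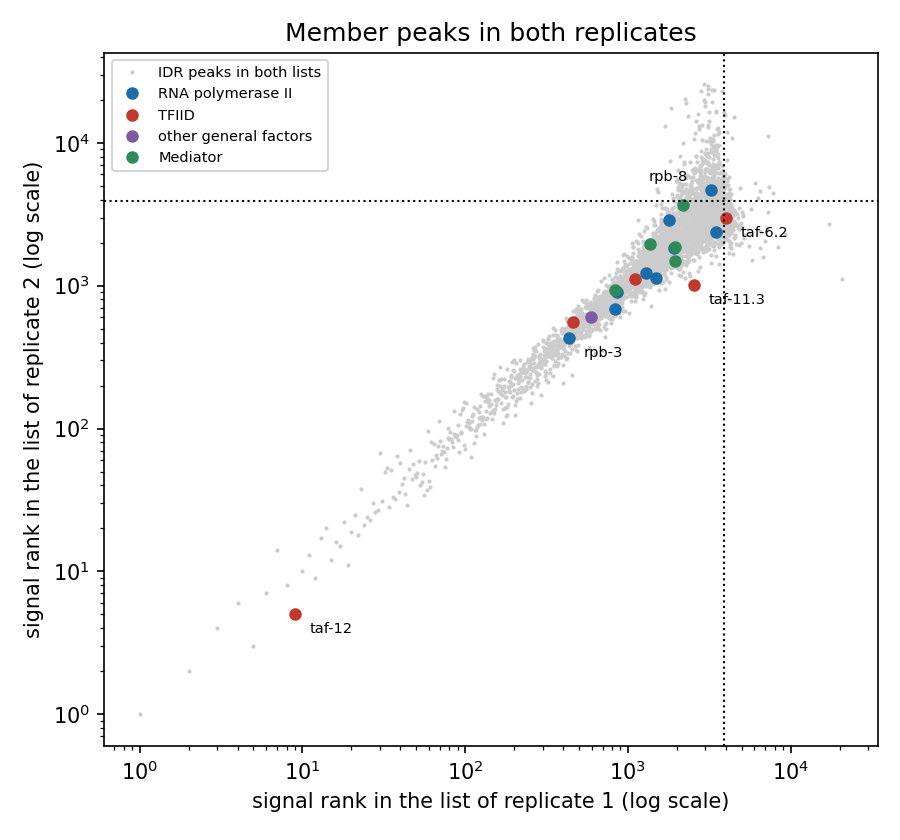
Signal rank in the list of replicate 1 (horizontal log axis) and of replicate 2 (vertical log axis) for the best peaks of the 20 bound members, coloured by complex, over all IDR peaks found in both lists (grey); dotted lines mark rank 3897. The member points follow the grey band, with taf-12 at ranks 9 and 5, and rpb-8 and taf-6.2 each outside one dotted line.

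Members were bound on every autosome and not on X. On chromosome I 5 of 10 were bound, on II 4 of 13, on III 6 of 18, on IV 4 of 11, on V 1 of 9 and on X 0 of 4, where the shares of all protein-coding genes were 22.9%, 15.9%, 24.4%, 14.9%, 9.33% and 1.03%. The 4 genes on X, taf-3, taf-7.1, taf-11.1 and mdt-1.2, had no pooled region in the window.

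Genes that act with the machinery, or belong to it, but carry other names were examined beside the members. Some are genes of Mediator and TFIIH, so the counts by symbol given above do not cover these complexes as a whole. From a list of 74 names of such genes, 65 matched a protein-coding gene, none of them a member. Of these 65, 33 were bound (50.8%, 38.1 to 63.4), beside 14.2% of all protein-coding genes. The list was chosen with earlier results of these data known, so this share and its interval are a description. The median rank of their best peaks was 2044, and 16 of the 33 were in the upper 50% of the list (48.5%; all bound genes 63.4%). A pooled region lay in the window of 60 of these genes, and 33 of the 60 were bound (55.0%; all genes with a pooled region 38.7%). The best peak lay in the window of another protein-coding gene for 20 of the 33 (60.6%; all bound genes 54.5%). The difference from the members was not tested. For RNA polymerase I the count was 3 of 6, with the large subunit genes rpoa-2 at rank 157 (-670 bp, shared with prom-1) and rpoa-1 at rank 494. Also bound was rpac-19, rank 1723 at -125 bp, shared with tbg-1. Among factors for RNA polymerase III and small nuclear RNA genes the count was 7 of 11. These 7 included 6 of 7 genes for the small nuclear RNA activating complex, led by snpc-3.4 (rank 183 at -22 bp), snpc-3.2 (rank 599) and snpc-3.1 (rank 652), and one TFIIIC gene, tftc-1 (rank 3138). The TFIIIB gene brf-1 had only a pooled region of rank 12470. Of 17 elongation genes 8 were bound, among them hmg-3 (rank 137) and hmg-4 (rank 428), which encode a subunit of the histone chaperone FACT, ell-1 (rank 189), the cyclin K gene ccnk-1 (rank 294) and the PAF1 complex gene pafo-1 (rank 1109). Their partners were not called: the other FACT gene spt-16 had a pooled region of rank 9971, the cyclin K partner cdk-12 one of rank 4128, and the PAF1 complex genes ctr-9, cdc-73, rtfo-1 and leo-1 had ranks 4580, 5808, 5955 and 7009. The peak of hmg-4 is the one it shares with T20B12.3, upstream of tbp-1. Of the DSIF pair spt-4 was bound (rank 2619) and spt-5 had a pooled region of rank 12720. Integrator, which processes small nuclear RNA ends, had 7 of 11, with ints-4 best at rank 1078 (+48 bp). Mediator genes with other names had 4 of 9, among them rgr-1 (rank 856), the kinase gene cdk-8 (rank 2052, shared with tlf-1, which encodes a TATA-binding protein relative) and its cyclin gene cic-1 (rank 3231). For the TFIIH helicases and kinase it was 1 of 5, mnat-1 (rank 2621), and for polymerase tail phosphatases and termination 2 of 5, xrn-2 (rank 1682) and cids-2 (rank 1397).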

How the data were processed

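The submitters deposited region lists for replicate 1 (30000), for replicate 2 (26018), for the pooled replicates (30000) and after IDR thresholding (3897). Per the notes deposited with the samples, the build was ce11 (WBcel235) and a control alignment, not analysed here, entered each call. Caller, aligner, IDR cutoff and depth were not given in the sources used here. The deposited signal value is on the caller's own scale and served for ranks within a list; the IDR peaks are the top of the pooled list by it. The deposited −log10 q-value was read for its range alone, 3.13 to 3.60 among IDR peaks. Summits are the region start plus the deposited offset.

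Genes were taken from Ensembl release 115 of WBcel235, and sequence from RefSeq. The members, the list of other transcription genes and the words were chosen with earlier results of these data known. All members are named; full values are given for the 10 best-ranked and for any with 2 or more summits in the window, and genes sharing a summit are named. The other transcription genes named are examples chosen after their values were seen; 9 of 74 listed names had no match by symbol. With 1 group and no set test, results are counts and medians beside those of all protein-coding genes. A region of a replicate matched a peak if their summits lay within 100 bp. Alternatives were the stronger peaks, the top list of 1 replicate, midpoints, other windows, the closest gene, unshared peaks, autosomes, genes with a pooled region, operon-like genes left out or traced to the first gene of their run, and other distances for matches and words. Scripts were tested on simulated data. The tools were Python 3.11.15 with scipy 1.17.1, numpy 2.4.6, matplotlib 3.10.9 and pandas 2.3.3.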

Additional observations from a re-analysis of the deposited data

How the results depend on the processing

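The count of 20 bound members stayed between 15 and 25 with the upper 50% of peaks, region midpoints and operon-like genes left out. It also did so with windows of 500 or 2000 bp upstream. With 1 replicate's top list in place of the IDR list it was 19 to 20. The share of all genes moved too, from 14.2% to 8.997% with the upper 50% of peaks, 11.26% with the narrower window and 18.2% with the wider one, where members had 23.1%, 26.2% and 38.5%. Among genes with a pooled region and on autosomes alone the count could only be 20. Every IDR peak is in the pooled list, and no member on X was bound. Among genes with a pooled region the share of members (38.5%) was at that of all genes (38.7%). On autosomes the shares were 32.8% and 16.3%. The count fell to 11 with the closest gene alone and to 6 with peaks in the window of 1 gene (ama-1, rpb-5, rpb-6, taf-8, taf-12 and mdt-22), where all genes had 10.2% and 6.65% bound, and rose to 31 with the first gene of operon-like runs, a setting chosen after seeing the data. The 33 bound other transcription genes became 16 with the upper 50% of peaks and 15 with peaks in the window of 1 gene. Support in both replicates was 17, 18 and 20 under other matching rules, against 18. The median summit position of -286 bp became -305 bp with the upper 50% of peaks and with the wider window, -260.5 bp with midpoints, -169 bp with the narrower window, -283 bp with the closest gene and -316 bp with unshared peaks, and ranged from -289 to -286 bp with 1 replicate left out. The median rank and the word count stayed within 1.5 times their value under the alternatives computed for them; the median rank was not computed with 1 replicate left out or with the first gene of a run. No paired analysis was possible because there is 1 group. Depth is unknown, so precision per peak cannot be given.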
